A study of Xenopus laevis and Petromyzon marinus with 21 samples.

Results

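Neural crest induced in frog animal caps was set against caps that formed epidermis, at stage 17 of Xenopus laevis and across all genes. The members are the 6 libraries of that stage, 3 of induced and 3 of control caps, out of 18 frog libraries and 21 in the whole series. They were chosen by their labels and by column names that give treatment, stage and a letter (a, b or c). Animal caps are the pluripotent ectoderm at the animal pole of the blastula, cut out and kept in culture in a salt solution. Induced caps came from wild-type embryos injected at the 2-cell stage with mRNA for the ligand wnt8a together with mRNA for chordin, and their labels call them neural crest. Control caps came from wild-type embryos that were not injected, and their labels call them epidermis. The libraries analysed here include no caps given only one of the mRNAs and none given an unrelated mRNA. What wnt8a, chordin and injection itself each did therefore cannot be told apart. Caps of the same kinds at stage 13 served as the nearest comparison.

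Neural crest cells arise in vertebrate embryos at the border between neural plate and epidermis, under Wnt and FGF signals and restrained BMP signalling. Border factors of the Pax3, Zic, Msx and AP-2 families act first, and factors such as Foxd3, Snai2, the SoxE group and Twist1 then mark the crest. The cells loosen from the epithelium, migrate, and give rise to pigment cells, peripheral neurons and glia, and the skeleton of the face. Ectoderm that keeps its BMP signal becomes epidermis instead. In frog embryos this is a mucociliary skin, with multiciliated cells, proton-pumping ionocytes, mucus-making goblet cells and small secretory cells over a basal layer.

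Messenger RNA was measured as reads counted per gene. The stage 17 libraries held 17649315 to 23292078 gene counts, and 27769 to 29097 genes had at least 1 count. Levels are given in CPM, the library-size-scaled unit of gene counts, with TMM scaling factors. Means of CPM are given ± SD over the 3 libraries of a group, and log2 fold changes (induced over control) ± SE. Within a group the variance between libraries was 27.9 times the counting variance in induced caps and 19.9 times in control caps. These ratios are chi-square per degree of freedom, a mean over genes. The median coefficient of variation of a gene was 19.5% in induced caps and 17.6% in control caps. The labels name no separate clutches, so the p-values reflect only how these samples vary, and that variation may be technical. In bulk samples such as these, fewer cells of a type and less RNA per cell cannot be told apart.

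Transcripts of the injected genes were higher in induced caps at stage 17. The chordin copy chrd.1.S stood at 155, 227 and 174 CPM in induced libraries a, b and c, against 0.0613, 0 and 0 CPM in control libraries a, b and c (ratio 9310, 95% counting interval 1670 to 368000). The ligand gene wnt8a.L stood at 8.75, 11.2 and 18.5 CPM in induced caps, against 0.368, 0.164 and 0.39 CPM in control caps (log2 fold change 5.35 ± 0.58, adjusted p = 4.3e-06). Both were higher in all 3 induced libraries, and the groups did not overlap for 60.8% of all genes. The copies chrd.1.L, chrd.2.L and wnt8a.S averaged 1.49, 0.194 and 0.869 CPM in induced caps, against 0, 0 and 0.0399 CPM in control caps. The call of chrd.2.L was lost with no block (adjusted p = 0.052). The call of wnt8a.S was lost without induced library c (adjusted p = 0.13) or control library c (0.056). Counts do not separate injected from endogenous transcripts, so these values are no measure of the embryo's own genes.

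By stage 17, 51.9% of the tested genes differed between the 2 kinds of caps. Of 24499 genes, 6260 were higher in induced caps (25.6%) and 6451 were lower (26.3%), at an adjusted p under 0.05 in edgeR's quasi-likelihood test with the letter as a block. Among the called genes, 3656 higher and 4616 lower ones had a fitted change of at least 2-fold. The fitted change was at least 16-fold for 811 higher and 1019 lower genes. No test against these sizes was run, and fitted sizes of genes with an empty group depend on a prior count. No count at all was found in control caps for 243 of the higher genes, and none in induced caps for 120 of the lower ones. With TMM the median over all genes tested was −0.01 (log2 fold change) and 49.2% of calls were higher. With library totals the median lay 0.22 above that and 61.1% of calls were higher, so smaller changes are to be read relative to this shift. Induced and control libraries did not overlap for 60.8% of genes. Counts of list members below are to be read beside the shares of all genes, 25.6% higher and 26.3% lower.

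**Figure D1:**
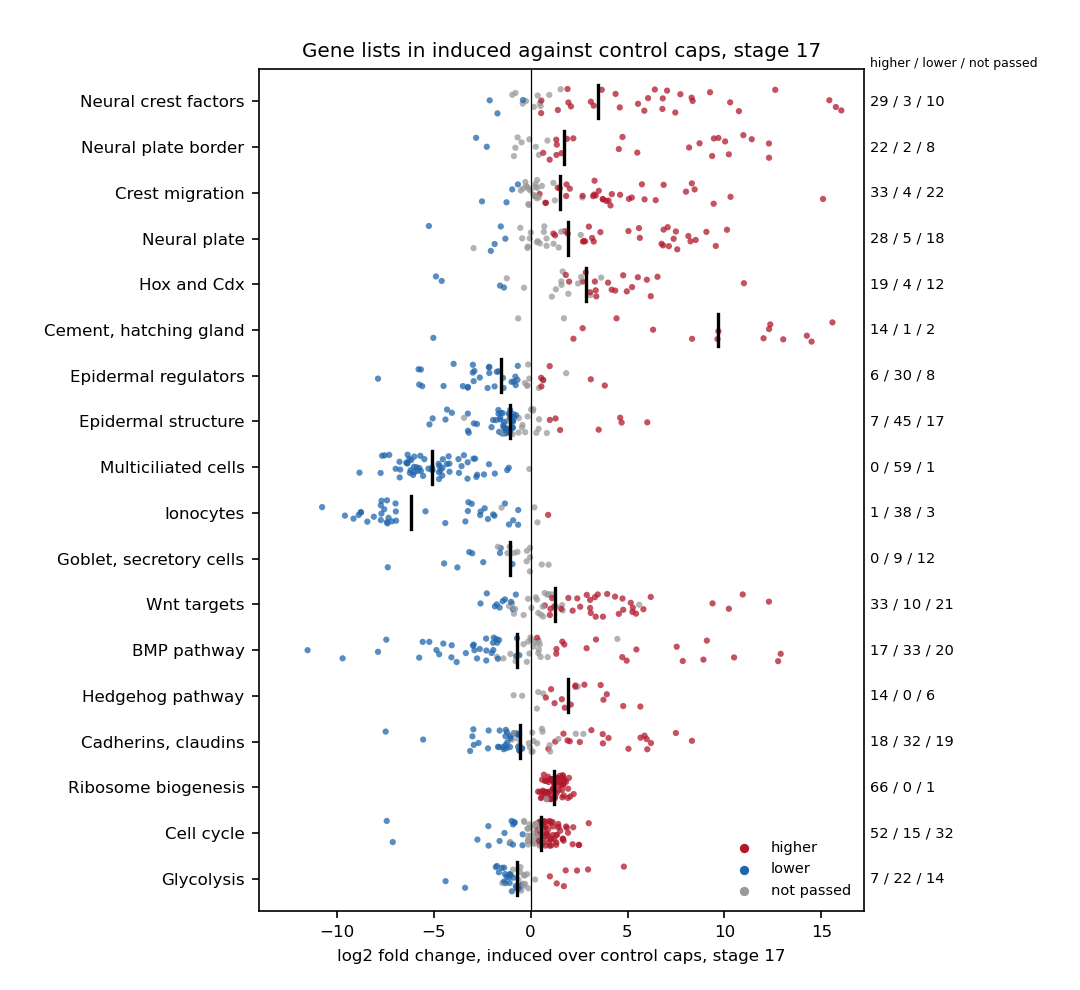
Log2 fold changes (induced over control caps, stage 17) of the tested members of 18 gene lists. Each point is 1 gene copy, coloured by its call, the black bar is the list's median, and the numbers at the right give members higher, lower and not passed. Neural crest factors lie mostly to the right of 0 and genes of multiciliated cells and ionocytes almost wholly to the left. Values of genes with an empty group are fitted and depend on a prior count.

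The genes of largest increase included crest transcription factors, receptors and secreted enzymes. The forkhead factor foxd3.L, a marker of crest progenitors, stood at 406, 443 and 401 CPM in induced caps, against no counts in control caps, and was thus at least 6940-fold higher (adjusted p = 1.7e-09). Lower bounds of this kind set 3 counts over the empty group in place of 0. The SoxE factor sox10.S, which drives pigment and glial lineages, stood at 344, 336 and 344 CPM in induced caps against no counts in control caps (at least 5690-fold higher). The receptor gene pdgfra.S, which guides migrating crest, stood at 221, 215 and 229.7 CPM in induced caps against no counts in control caps (at least 3700-fold higher). These 3 genes varied little among induced libraries. Larger spread was seen for xa-1.L, a frog anterior ectodermal gene, with 64.2, 766 and 266 CPM in induced caps and no counts in control caps (at least 6090-fold higher). Induced library a was low and library b high for it. The gene cyp26c1.L, for an enzyme that breaks down retinoic acid, stood at 380.1, 748 and 711 CPM in induced caps and 0.0613, 0 and 0 CPM in control caps (ratio 31500, 95% counting interval 5660 to 1250000). Further genes with no control counts were the water channel gene aqp3.L (at least 1020-fold higher), the LIM homeobox gene lmx1b.1.S (918-fold) and the BMP receptor gene bmpr1b.L (806-fold). The synaptotagmin gene syt13.S and the astacin-like protease genes astl2f.S and astl3a.1.L also had none (at least 810, 2100 and 886-fold higher).

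The genes of largest decrease included opsins, transport genes and cilia genes. The non-visual opsin gene val.L stood at 0.181, 0.101 and 0.0438 CPM in induced caps, against 694, 736 and 701 CPM in control caps (log2 fold change −13.05 ± 1.72, adjusted p = 4.4e-05). Another opsin gene, tmtops.L, had no counts in induced caps, against 23.6, 32.1 and 32.7 CPM in control caps (at least 581-fold lower). The phospholipase gene plcb2.L had no counts in induced caps, against 42.2, 48.2 and 70.1 CPM in control caps (at least 1050-fold lower). Groups that do not overlap were a condition for naming these genes. The BMP-dependent secreted inhibitor gene szl.L averaged 0.0973 ± 0.127 CPM in induced caps and 223 ± 76.9 CPM in control caps (log2 fold change −11.5 ± 1.87, adjusted p = 0.00023). The transporter gene slc6a3.S averaged 0.358 ± 0.18 CPM in induced caps and 593 ± 95.6 CPM in control caps (log2 fold change −10.88 ± 1.63, adjusted p = 0.00024). The homeobox gene nkx2-3.S fell as well (log2 fold change −9.36 ± 0.83, adjusted p = 7.8e-07). Carbonic anhydrase ca7.S was at least 249-fold lower and c20orf85.S at least 198-fold lower. The other genes of largest decrease had 1 or 2 counts over the induced libraries, namely the cilia gene ribc1.L and spaca9.L and heatr4.S. Their adjusted p-values were 4.2e-07, 3.4e-07 and 9.4e-08.

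Factors of the neural crest were higher in induced caps across most of their list. Of 42 copies tested 29 were higher, 3 lower and 10 did not pass (5 lower with the block within each stage and 6 with the stage 17 libraries alone), and the median log2 fold change was 3.46, against −0.01 over all genes. The SoxE gene sox8.L, active early in frog crest, stood at 887, 863 and 795 CPM in induced caps, against 2.39, 3.23 and 2.15 CPM in control caps (log2 fold change 8.36 ± 0.28, adjusted p = 1.1e-10). The snail factor snai2.L, which represses epithelial genes, stood at 615, 706 and 552 CPM in induced caps, against 10.1, 7.77 and 4.62 CPM in control caps (log2 fold change 6.41 ± 0.30, adjusted p = 1.7e-09). Both had induced libraries far above all control libraries, and the groups did not overlap for 60.8% of all genes. The cartilage regulator sox9.S averaged 423 ± 71.6 CPM in induced caps and 2.01 ± 0.972 CPM in control caps (log2 fold change 7.73 ± 0.49, adjusted p = 3.8e-08). The mesenchymal factor twist1.L averaged 187 ± 19.7 CPM in induced caps and 0.621 ± 0.694 CPM in control caps (log2 fold change 8.31 ± 0.42, adjusted p = 2.9e-09). The AP-2 factor tfap2b.L averaged 188 ± 38.7 CPM in induced caps and 1.68 ± 0.418 CPM in control caps (log2 fold change 6.82 ± 0.43, adjusted p = 1.1e-07). The sister copies of these genes rose too, with log2 fold changes of 10.75 for sox8.S, 6.06 for sox9.L, 9.26 for twist1.S and 7.04 for tfap2b.S. The AP-2 gene tfap2e.S rose by 7.47 on the log2 scale and tfap2e.L was at least 137-fold higher. The copy foxd3.S stood at 162 CPM in induced caps with 1 count over the control libraries (ratio 8120, 95% counting interval 1460 to 321000), and sox10.L was at least 4150-fold higher.

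Other crest factors rose, fell or did not pass. The snail factor snai1.L averaged 208 ± 28.8 CPM in induced caps and 24.7 ± 9.56 CPM in control caps (log2 fold change 3.11 ± 0.25, adjusted p = 2e-07). Its copy snai1.S averaged 259 ± 30.1 CPM in induced caps and 70.1 ± 13.4 CPM in control caps (log2 fold change 1.91 ± 0.33, adjusted p = 0.00026). The growth regulators myc.L and myc.S rose by 2.08 and 1.95 (adjusted p = 1.4e-06 and 1.8e-05). Related mycn.L and mycn.S rose by 5.87 and 5.54, and the nuclear receptor gene nr2f1.L by 6.8. Inhibitors of differentiation of the Id group are BMP targets that crest cells also use. For id3.L the libraries held 395, 456 and 431 CPM in induced caps and 295, 298 and 293 CPM in control caps, and its call did not pass (log2 fold change 0.52 ± 0.37, adjusted p = 0.26). The groups did not overlap for it, as for 60.8% of all genes. A fit of the stage 17 libraries alone with the block called id3.L (0.55, adjusted p = 0.0037). The copy id3.S behaved likewise (0.48 ± 0.33, adjusted p = 0.25, and 0.50 with 0.0062 in the fit of stage 17 alone). The BTB-domain gene kctd15, known to limit crest formation in fish, did not pass for kctd15.L (−0.78 ± 0.55, adjusted p = 0.25) or kctd15.S (−0.40 ± 0.18, adjusted p = 0.072). Both were called lower in the fit of stage 17 alone with the block (−0.83, adjusted p = 0.0041, and −0.39, adjusted p = 0.025). The ETS factor of migrating cranial crest split by copy. Its copy ets1.S averaged 179 ± 13.1 CPM in induced caps and 14.1 ± 1.58 CPM in control caps (log2 fold change 3.67 ± 0.39, adjusted p = 3.5e-06), while ets1.L averaged 93.9 ± 13.5 CPM in induced caps and 111 ± 15 CPM in control caps and did not pass (−0.24 ± 0.18, adjusted p = 0.28). The members that fell were copies of the LIM-only cofactor lmo4. Both lmo4.2.S and lmo4.1.S fell (−2.11 ± 0.29 and −1.71 ± 0.15, adjusted p = 2.9e-05 and 4.8e-07). The smaller change of lmo4.1.L (−0.39 ± 0.14, adjusted p = 0.032) lost its call whichever library was left out (adjusted p 0.057 to 0.22) and with library totals (−0.16, adjusted p = 0.4), no filter (0.14) or no block (0.085).

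**Figure D2:**
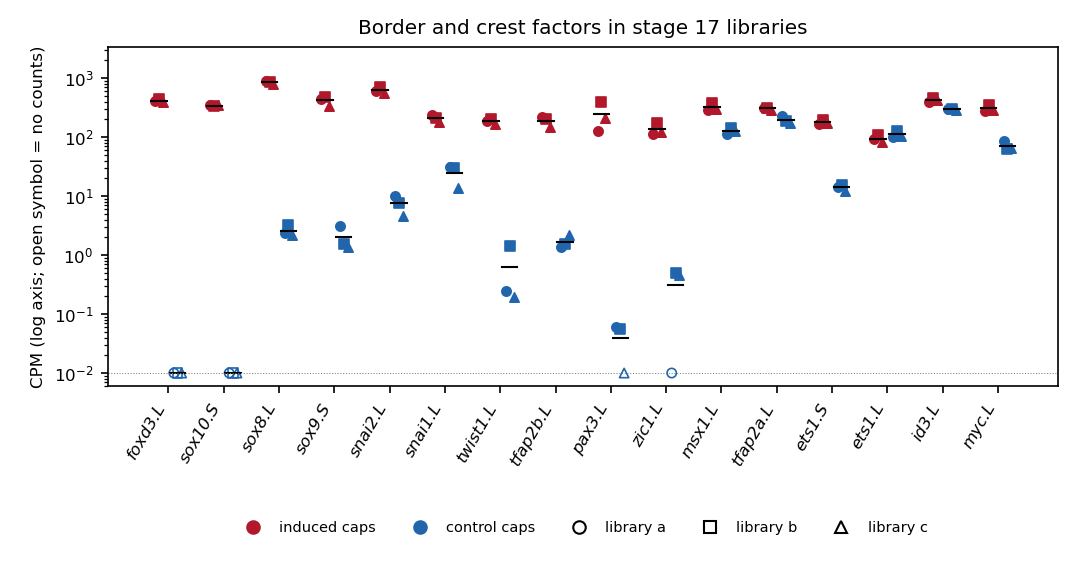
CPM of 16 border and crest gene copies in each stage 17 library on a log axis, induced caps left and control caps right for each gene. Symbols give the library letter, black bars the group mean, and open symbols on the dotted line libraries with no counts. foxd3.L and sox10.S had counts in induced libraries alone, whereas the groups lie close together for tfap2a.L, id3.L and ets1.L.

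Border factors were more often higher than lower in induced caps. Of 32 copies tested 22 were higher, 2 lower and 8 did not pass (median 1.74). The paired-box border specifier pax3.L stood at 125, 399.9 and 210.1 CPM in induced caps, against 0.0613, 0.0547 and 0 CPM in control caps (ratio 6240, 95% counting interval 1730 to 51500). Its copy pax3.S stood at 55, 347 and 167 CPM in induced caps, against 0.368, 0.109 and 0.13 CPM in control caps (log2 fold change 9.69 ± 0.75, adjusted p = 2.4e-07). For both copies induced library a was lowest and b highest. Zinc-finger border factors of the Zic family were almost missing from control caps. The gene zic1.L averaged 135 ± 31.8 CPM in induced caps and 0.316 ± 0.274 CPM in control caps (log2 fold change 8.72 ± 0.47, adjusted p = 6.8e-09). Among its relatives zic2.L rose by 9.46 on the log2 scale. The copy zic1.S averaged 69.9 CPM in induced caps with 3 counts over the control libraries (ratio 1170, 95% counting interval 401 to 5680). No control counts were found for zic4.L and zic4.S (at least 286 and 215-fold higher). Factors shared with epidermis differed less. The homeobox genes msx1.L and msx1.S rose by 1.33 and 1.33 (adjusted p = 0.0033 and 0.00042). Their relatives msx2.L (−0.06 ± 0.34, adjusted p = 0.9) and msx2.S (0.42 ± 0.42, adjusted p = 0.42) did not pass. The AP-2 gene tfap2a.L averaged 307 ± 13.3 CPM in induced caps and 197 ± 28.3 CPM in control caps (log2 fold change 0.65 ± 0.16, adjusted p = 0.0036), and tfap2a.S rose by 0.99. Lower were pax7.S (0.592 CPM in induced caps and 3.74 CPM in control caps, log2 fold change −2.81 ± 0.57) and the homeobox gene gbx2.1.S (−2.26 ± 0.48). The copy pax7.L was under the filter on low counts.

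Genes used by migrating crest rose next to many that did not pass. Of 59 copies tested 33 were higher, 4 lower and 22 did not pass (median 1.51), and the number lower was 1 without induced library a and 2 without induced library b, control library a or control library b, or with library totals. Neuropilins are co-receptors for semaphorins and VEGF. Their genes nrp1.S and nrp1.L averaged 190.5 and 42.6 CPM in induced caps, against 0.511 and 0.135 CPM in control caps (log2 fold changes 8.46 ± 0.70 and 8.32 ± 0.69). The related nrp2.S averaged 58.9 CPM in induced caps with 2 counts over the control libraries (ratio 1510, 95% counting interval 418 to 12500). The growth factor receptor copy pdgfra.L averaged 207 ± 17.5 CPM in induced caps and 0.29 ± 0.175 CPM in control caps (log2 fold change 9.44 ± 0.42, adjusted p = 1.1e-09). Chemokine receptor cxcr4 guides crest clusters in frogs. For cxcr4.S the libraries held 151, 196 and 172 CPM in induced caps and 41.3, 54.5 and 47.9 CPM in control caps (log2 fold change 1.86 ± 0.31, adjusted p = 0.00017). Its copy cxcr4.L overlapped between groups and did not pass (−0.11 ± 0.35, adjusted p = 0.81). The endothelin receptor copy ednra.S averaged 42.4 ± 1.97 CPM in induced caps and 12.1 ± 2.78 CPM in control caps (log2 fold change 1.84 ± 0.51, adjusted p = 0.008). The copy ednra.L was under 2 CPM in every library and called lower (−2.51 ± 0.76, adjusted p = 0.012), and it lost its call without induced library a (adjusted p = 0.056), induced library b (0.083) or control library a (0.1). Its relative ednrb.S had at most 0.037 CPM on average and did not pass. Both copies of the mesenchymal cadherin gene cdh11 were under the filter. Members that fell included plxna2.L (−1.24 ± 0.34, adjusted p = 0.0067), for a semaphorin receptor, which lost its call without control library a (adjusted p = 0.065). The calls of ephb4.S (−0.95 ± 0.30, adjusted p = 0.016) and adam9.S (−0.65 ± 0.21, adjusted p = 0.018) failed with library totals (0.077 and 0.13), and that of ephb4.S with no block (0.069). Of single libraries, ephb4.S lost its call without induced library a (adjusted p = 0.083), induced library c (0.056) or control library b (0.078), and adam9.S lost its call without induced library a (adjusted p = 0.051), induced library b (0.1), control library b (0.078) or control library c (0.09).

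Cadherins, claudins and junction genes were lower in 32 of 69 copies (46.4%, against 26.3% of all genes) and higher in 18 (26.1%, against 25.6%), and 19 did not pass (median −0.57, or −0.27 without control library b and −0.06 with no filter). N-cadherin, the adhesion molecule of neural and mesenchymal cells, was higher. Its copy cdh2.L stood at 61.6, 95.2 and 101 CPM in induced caps, against 0.674, 0.492 and 0.195 CPM in control caps (log2 fold change 7.5 ± 0.42, adjusted p = 6.7e-09), and cdh2.S rose by 5.05. E-cadherin, the adhesion molecule of epithelia, split by copy. Its abundant copy cdh1.S stood at 587, 502 and 435 CPM in induced caps, against 1613, 1672 and 1439.8 CPM in control caps (log2 fold change −1.62 ± 0.25, adjusted p = 0.0001). The minor copy cdh1.L stood at 15.1, 66.9 and 26.9 CPM in induced caps, against 1.29, 0.164 and 0.26 CPM in control caps (log2 fold change 6.02 ± 0.79, adjusted p = 2.4e-05). The groups did not overlap for either copy, as for 60.8% of all genes. Cadherin-23 gene cdh23.L and the protocadherin gene pcdh18.L rose by 6.21 and 4.02. Paraxial protocadherin pcdh8.2.L rose by 5.88, or by 9.30 without control library c. The tight junction gene cldn1.L fell (5.93 CPM in induced caps and 278 CPM in control caps, log2 fold change −5.54 ± 0.76). The protocadherin gene pcdh10.L also fell (−3.12 ± 0.40).

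Guidance, matrix and protease genes gave mixed counts. Of 24 Eph receptor and ephrin copies 11 were higher (45.8%), 9 lower (37.5%) and 4 did not pass. The receptor genes epha4.S, epha7.S and ephb1.S rose by 5.07, 5.27 and 4.62, while efna5.L, ephb3.L and efnb3.L changed by −4.25, −2.31 and −1.55. Of 46 semaphorin, plexin and neuropilin copies 19 were higher (41.3%), 13 lower (28.3%) and 14 did not pass. The semaphorin genes sema3d.S, sema4b.L and sema5b.S were among the lower ones (−5.2, −3.32 and −2.86). Among 89 copies of matrix and integrin genes 26 were higher (29.2%, against 25.6% of all genes), 13 lower (14.6%, against 26.3%) and 50 did not pass. The integrin gene itga4.L, whose product binds fibronectin, was at least 86.6-fold higher, and the matrix genes col5a2.L and fbln1.L rose by 6.47 and 5.46. The integrin genes itga6.S (−4.31) and itga3.L (−3.67) fell, as did the collagen gene col14a1.L (−4.65), while itgb4.L, for the partner of the itga6 product, rose by 4.62 ± 0.68. Of 49 copies of ADAM, MMP and TIMP genes 18 were higher, 7 lower and 24 did not pass, and 12 were lower with the block within each stage. The metalloprotease mmp28.L was at least 420-fold higher, and mmp15.S and adam11.L rose by 3.3 and 8.48. In induced library c adam11.L stood above the other induced libraries (15.9, 13.9 and 76.9 CPM in induced caps and 0.184, 0 and 0.065 CPM in control caps). Lower were adam22.L (−3.27) and adamtsl5.L (−2.73). The gene mmp3.L (−2.92, adjusted p = 0.017) lost its call without induced library b (adjusted p = 0.096), induced library c (0.076), control library a (0.076) or control library b (0.069), and by DESeq2 (0.07) and with no filter (0.057).

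Genes of crest derivatives were low or uneven at this stage. The pigment cell regulator mitf.S stood at 16.4, 11.1 and 6.14 CPM in induced caps, against no counts in control caps (at least 187-fold higher, adjusted p = 0.0002). Melanin enzyme gene dct.L was under 0.4 CPM in every library and did not pass, and dct.S and mitf.L were under the filter. Of 18 pigment gene copies 4 were higher (22.2%), 4 lower (22.2%) and 10 did not pass. These shares were near those of all genes (25.6% and 26.3%). The melanosome genes pmel.S and gpr143.L rose by 1.31 and 0.79. Stem cell factor receptor kit, which pigment cell precursors need, fell in both copies, and kit.L averaged 1.36 ± 0.665 CPM in induced caps and 67 ± 10.3 CPM in control caps (log2 fold change −5.67 ± 0.31). The copy kit.S changed by −3.71 ± 0.34, and the pteridine enzyme gene gch1.L by −3.69 ± 0.48. Of 15 skeletal gene copies 3 were higher (20%), 6 lower (40%) and 6 did not pass, a balance that turned in fits that tested other copies. Leaving out 1 library also let more copies pass the filter on low counts, and the parts of library and filter were not separated. Without induced library b 4 of 16 copies were higher and 3 lower. Without any other 1 library 5 of 17 were higher, and 4 were lower, or 3 without control library b. With the stage 17 libraries alone and the block 5 of 11 were higher and 5 lower, and with no filter 6 of 25 were higher and 3 lower. Summed over the skeletal list, levels were 461.5 to 561.6 CPM in induced libraries and 337.4 to 357.8 CPM in control libraries. Pharyngeal arch genes were among the list members that fell. The bHLH gene hand2.L had 2 counts over the induced libraries and 17.6 CPM in control caps. Its copy hand2.S changed by −6.17 ± 0.50 and dlx2.L by −4.3 ± 0.61. The related distal-less genes dlx6.L and dlx6.S, given below with epidermal regulators, rose by 3.83 and 3.11. Of 22 copies of neuron and glia genes 13 were higher, 6 lower and 3 did not pass, with a median of 3.43, or 2.52 with genes of an empty group at their bound. With the stage 17 libraries alone and the block 12 copies were tested, 6 were higher and the median was 0.86. With no filter 17 of 39 were higher. Summed over the neuron and glia list, levels were 116.7 to 241.1 CPM in induced libraries. In control libraries they were 227.2 to 319.3 CPM, which overlapped. The median was 1.89 without induced library a (23 copies tested), 1.98 without control library a (25) and 2.15 without control library c (25). Most were at low levels, with neurog2.L at 0.762 and neurog2.S at 0.555 CPM in induced caps, against 0.14 and 0 CPM in control caps. Neuronal tubulin tubb3.L averaged 5.65 CPM in induced caps with 1 count over the control libraries. The RNA-binding protein gene elavl3.L rose by 1.94 ± 0.45. The intermediate filament gene prph.S stood at 20.8, 0.253 and 8.15 CPM in induced caps and 0.123, 0.109 and 0 CPM in control caps, high in library a and low in b. The LIM factor genes isl1.S and isl1.L fell (−5.14 ± 0.78 and −2.54 ± 0.54). The call of erbb3.S (−1.1 ± 0.35, adjusted p = 0.016), for a neuregulin receptor of glia, was also lower, and it lost its call without induced library b (adjusted p = 0.097), induced library c (0.068), control library a (0.066) or control library b (0.081).

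Neural plate and Hox genes rose in part. Of 51 neural plate copies 28 were higher, 5 lower and 18 did not pass (median 1.92), and 3 were lower without control library a. The hindbrain factor egr2.L stood at 50.6, 69.9 and 81.8 CPM in induced caps, against 0.368, 0.0547 and 0.455 CPM in control caps (log2 fold change 8.14 ± 0.90, adjusted p = 5.3e-06). The zinc-finger gene zeb2.L averaged 75.8 ± 11 CPM in induced caps and 0.101 ± 0.0718 CPM in control caps (log2 fold change 9.55 ± 0.65). The tubulin gene tubb2b.S rose by 8.52 ± 0.92, and olig3.S was at least 119-fold higher. General neural plate factors of the SoxB1 group did not follow. For sox2.L the libraries held 0.121, 3.29 and 4.21 CPM in induced caps and 1.9, 3.23 and 1.69 CPM in control caps, which overlapped (log2 fold change −0.05 ± 0.63, adjusted p = 0.96). The related sox3.S averaged 6.16 ± 2.26 CPM in induced caps and 21.5 ± 4.09 CPM in control caps (log2 fold change −1.85 ± 0.38, adjusted p = 0.00092). The related sox21.L fell by 2.05. The copy sox3.L changed by −1.54 ± 0.51 (adjusted p = 0.021), and it lost its call without induced library a (adjusted p = 0.089), control library a (0.096) or control library b (0.072). It also lost it with the block within each stage (0.089), with the stage 17 libraries alone and the block (0.054) and with no filter (0.079). Forebrain and midbrain factor otx2 rose weakly. The gene otx2.L changed by 1.27 ± 0.43 (adjusted p = 0.023) and lost its call without induced library b (adjusted p = 0.1), control library a (0.065), control library b (0.053) or control library c (0.064), and with no block (0.051). For otx2.S the change was 1.18 ± 0.39 (adjusted p = 0.02), and it lost its call without induced library b (adjusted p = 0.055), induced library c (0.054), control library a (0.065) or control library c (0.054). Both copies of the midbrain factor en2 were under the filter.

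Hox and Cdx genes set position along the hindbrain and trunk. Of 35 copies tested 19 were higher, 4 lower and 12 did not pass (median 2.85). Without induced library b 46 copies were tested, 30 higher and 2 lower, and without control library a 47 were tested and 2 were lower. In both cases more copies passed the filter on low counts, so the counts cover other copies. The median was 1.69 without induced library c. The gene hoxc3.L was at least 217-fold higher. Hindbrain genes hoxb2.S and hoxb2.L rose by 6.55 ± 0.44 and 5.24 ± 0.52. Both copies of hoxa3 were lower, and hoxa3.L (−1.58 ± 0.45, adjusted p = 0.013) lost its call without induced library b (adjusted p = 0.064) or control library a (0.12).

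Hatching gland and other anterior ectoderm genes formed the list with the largest median of the 38. Of 17 copies tested 14 were higher, 1 lower and 2 did not pass, and the median was 9.64, or 8.33 with genes of an empty group at their bound, and 6.38 over 25 copies with no filter. The list holds pax3, xa-1 and cyp26c1, which other ectoderm also makes. Its summed level was 5159 to 6018 CPM in induced libraries and 4236 to 5613 CPM in control libraries, which overlapped. Of this astl2d.1.L, named after its values were seen, took 2971 ± 833 CPM in induced caps and 4728 ± 735 CPM in control caps. It did not pass, but a fit of the stage 17 libraries alone with the block called it lower (−0.68, adjusted p = 0.031). Secreted proteases of the astacin family, to which the frog hatching enzyme belongs, differed by library. The gene astl2f.S stood at 16.3, 259 and 104 CPM in induced caps, against no counts in control caps. For astl3a.1.L the values were 9.9, 118 and 31.8 CPM in induced caps and no counts in control caps. Induced library a was low and library b high for both, as it was for syt13.S (5.85, 109 and 30.7 CPM in induced caps and no counts in control caps). The protease inhibitor gene fetub.S fell (−5.02 ± 0.87, adjusted p = 0.0013), a call not made by DESeq2 (0.15). Placode genes mostly did not follow. Of 25 copies 6 were higher (24%, against 25.6% of all genes), 10 lower (40%, against 26.3%) and 9 did not pass. The T-box genes tbx3.S and tbx3.L and the Sox gene sox7.S, which also serve other tissues, fell (−6.95 ± 1.17, −6.69 ± 1.09 and −6.13 ± 0.64).

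Epidermal regulators and structural genes were lower in induced caps but many stayed abundant. Of 44 copies of regulators 6 were higher, 30 lower and 8 did not pass (median −1.54, or −1.46 with genes of an empty group at their bound). Of 69 structural copies 7 were higher, 45 lower and 17 did not pass (median −1.08). Their summed level was 49009.5 to 66892 CPM in induced libraries and 108841 to 143299 CPM in control libraries. The zinc-finger factor gata3.S, which epidermis makes in response to BMP, stood at 1.51, 0.354 and 0.482 CPM in induced caps, against 205, 119 and 168 CPM in control caps (log2 fold change −7.87 ± 1.05, adjusted p = 3.7e-05). Its copy gata3.L changed by −5.75 ± 0.72. The basal layer factor tp63.L stood at 72.5, 34 and 16.6 CPM in induced caps, against 336, 347 and 323 CPM in control caps (log2 fold change −2.98 ± 0.76, adjusted p = 0.0051). For tp63.S the change was −2.98 ± 0.65, and both copies were highest in induced library a. The forkhead gene foxi4.1.L changed by −5.66 ± 0.80. The grainyhead factor grhl3.S averaged 502 ± 141 CPM in induced caps and 812 ± 170.3 CPM in control caps (log2 fold change −0.66 ± 0.24, adjusted p = 0.029). It lost its call without induced library b (adjusted p = 0.21), induced library c (0.064), control library a (0.068), control library b (0.11) or control library c (0.051), and with library totals (0.097) or no filter (0.057). Its copy grhl3.L (−0.78 ± 0.30, adjusted p = 0.04) lost its call without induced library b (adjusted p = 0.22), induced library c (0.11), control library a (0.12), control library b (0.1) or control library c (0.068), and with library totals (0.1) or no filter (0.092). Higher regulators were the distal-less genes dlx6.L and dlx6.S (3.83 ± 0.58 and 3.11 ± 0.38) and the AP-2 gene tfap2c.S (0.56 ± 0.11).

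Keratins, the filaments of the skin, moved unevenly. The copy krt19.L stood at 39, 32.2 and 19.9 CPM in induced caps, against 1136, 1256 and 1085 CPM in control caps (log2 fold change −5.22 ± 0.59, adjusted p = 7.5e-06). The gene krt18.3.L also fell (−4.06 ± 0.42). In the other direction krt18.1.S stood at 402, 668 and 452 CPM in induced caps, against 30.4, 12.9 and 15.6 CPM in control caps (log2 fold change 4.7 ± 0.50, adjusted p = 3.7e-06). The rise of krt12.2.S (1.52 ± 0.51, adjusted p = 0.023) lost its call without induced library c (adjusted p = 0.19), control library b (0.052) or control library c (0.14), and in the fit of stage 17 alone with the block (0.06). The adhesion gene epcam.L (−0.85 ± 0.24, adjusted p = 0.0078) lost its call without induced library b (adjusted p = 0.055) or control library a (0.053), and epcam.S overlapped between groups and did not pass (−0.15 ± 0.20, adjusted p = 0.54). Keratin krt7, named here because its copies were the most abundant genes, led both kinds of caps. Its copies krt7.L and krt7.S took 1.1% and 0.901% of gene counts in induced caps, against 1.97% and 2.32% in control caps. The 10 most abundant genes took 7.95 ± 0.97% of counts in induced libraries and 13.6 ± 1.48% in control libraries (SD, n = 3 each). An exact permutation test gave p = 0.1, two-sided, the smallest that 3 against 3 libraries allow.

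**Figure D3:**
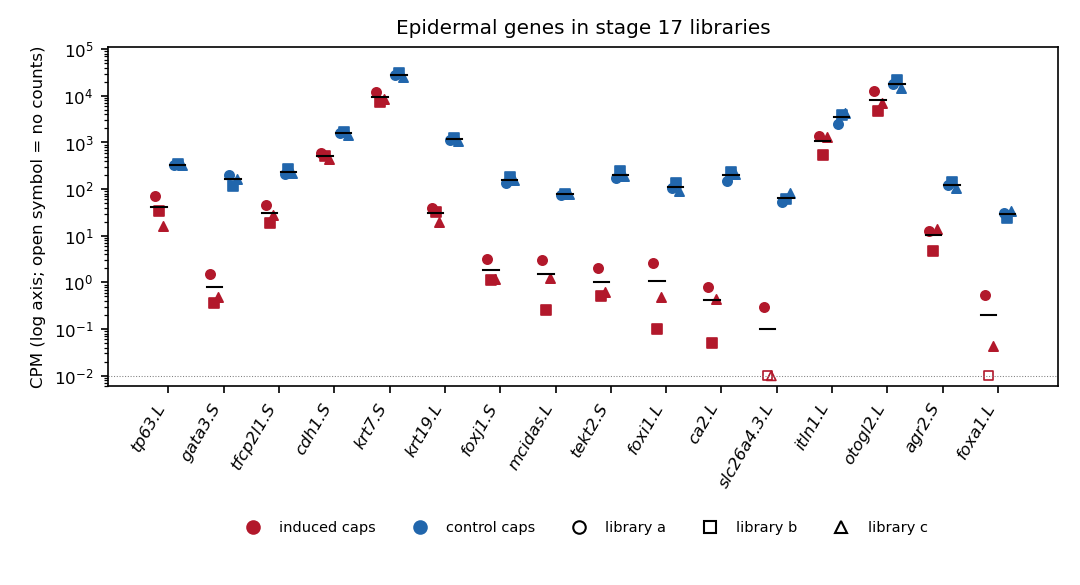
CPM of 16 epidermal gene copies in each stage 17 library on a log axis, induced caps left and control caps right for each gene. Symbols give the library letter, black bars the group mean, and open symbols on the dotted line libraries with no counts. Genes of multiciliated cells and ionocytes lie far apart between groups, those of the goblet cell genes itln1.L and otogl2.L closer together.

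Genes of multiciliated cells were lower almost without exception. Of 60 copies tested 0 were higher and 59 lower, and the remaining copy, gmnc.S, named after its values were seen, had no counts in these 6 libraries (median −5.08). Their summed level was 504 to 650.1 CPM in induced libraries and 6206 to 8200 CPM in control libraries. The master regulator of cilia motility foxj1.S stood at 3.2, 1.11 and 1.18 CPM in induced caps, against 137, 182 and 158 CPM in control caps (log2 fold change −6.41 ± 1.16, adjusted p = 0.00051). Its relatives foxj1.L, foxj1.2.L and foxj1.2.S changed by −6.19, −6.96 and −4.75. The inducer of the cell type mcidas.L stood at 3.08, 0.253 and 1.23 CPM in induced caps, against 76.3, 77.3 and 77.9 CPM in control caps (log2 fold change −5.83 ± 1.22, adjusted p = 0.0015), and mcidas.S changed by −5.69. Of the induced libraries a was highest for foxj1.S, foxj1.L and both mcidas copies. Axoneme components named for their large decreases were the tektin genes tekt2.S (−7.66 ± 0.90) and tekt1.S (−7.74 ± 0.71). Tektin copy tekt2.L had 3 counts over the induced libraries and 22.8 CPM in control caps. The ciliogenic factor rfx2, which other cells also use, fell less (rfx2.L −1.13 ± 0.23, rfx2.S −1.2 ± 0.23).

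Ionocyte genes fell in a similar way. Of 42 copies tested 1 was higher, 38 lower and 3 did not pass (median −6.18, or −4.91 with genes of an empty group at their bound, and −3.32 over 49 copies with no filter). Their sum was 305.6 to 464.5 CPM in induced libraries and 2966 to 3538 CPM in control libraries. The forkhead factor foxi1.L, which sets the ionocyte fate, stood at 2.6, 0.101 and 0.482 CPM in induced caps, against 107, 132 and 92.4 CPM in control caps (log2 fold change −6.94 ± 1.08, adjusted p = 0.00013), and foxi1.S changed by −4.4 ± 1.04. Induced library a was highest for both copies. List members named for their large decreases were near 0 in induced caps. The carbonic anhydrase gene ca2.L averaged 0.425 ± 0.367 CPM in induced caps and 198 ± 42.7 CPM in control caps (log2 fold change −9.13 ± 1.16). The anion exchanger gene slc26a4.3.L stood at 0.302, 0 and 0 CPM in induced caps, against 53.5, 61.2 and 81.8 CPM in control caps (log2 fold change −9.58 ± 1.0). The proton pump subunit gene atp6v1c2.S had no counts in induced caps, against 9.56, 7.33 and 8.91 CPM in control caps, and was at least 170-fold lower. The factor tfcp2l1 was less reduced (tfcp2l1.L −3.21 ± 0.31, tfcp2l1.S −3.04 ± 0.35). The sodium-proton exchanger gene slc9a3.L was the member that rose (0.91 ± 0.22, adjusted p = 0.0028).

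Goblet and secretory cell genes were lower or did not pass. Of 21 copies 0 were higher, 9 lower and 12 did not pass (median −1.08), and 2 were higher with library totals. Their summed level was 14686, 5964 and 9115 CPM in induced libraries a, b and c, against 22242, 28230 and 20656 CPM in control libraries a, b and c. Induced library a was again the highest of its group. The mucus lectin gene itln1.L stood at 1344, 547 and 1323 CPM in induced caps, against 2505, 3889 and 4323 CPM in control caps (log2 fold change −1.69 ± 0.92, adjusted p = 0.15). The mucin-like otogl2.L stood at 12659, 4632 and 7151 CPM in induced caps, against 17719.5, 22104 and 14363 CPM in control caps (−1.19 ± 0.61, adjusted p = 0.12). The groups did not overlap for either gene, as for 60.8% of all genes. A fit of the stage 17 libraries alone with the block called both (adjusted p = 0.0086 and 0.026). The copies itln1.S and otogl2.S did not pass (0.93 ± 0.43 and −1.08 ± 0.54), but both passed in that fit, itln1.S as higher (0.96, adjusted p = 0.04) and otogl2.S as lower (−1.01, adjusted p = 0.04). The call of itln1.S as higher was also made with library totals (adjusted p = 0.038), with the block within each stage (0.047) and without control library a (1.36, adjusted p = 0.039). Among genes that fell, the forkhead factor foxa1.L of small secretory cells averaged 0.196 ± 0.302 CPM in induced caps and 29.5 ± 5.15 CPM in control caps (log2 fold change −7.37 ± 1.07), and foxa1.S changed by −1.58 ± 0.42. The disulfide isomerase gene agr2.S (−3.78 ± 0.66) and the calpain genes capn8.1.S (−4.46 ± 0.96) and capn8.1.L (−3.16 ± 0.35) fell as well. The part of remaining secretory or basal cells in the other results was not tested.

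Genes of the Wnt response were more often higher than lower in induced caps at stage 17. Of 64 copies 33 were higher, 10 lower and 21 did not pass (median 1.26). The feedback inhibitor axin2.S stood at 303, 307 and 320.4 CPM in induced caps, against 22.1, 17.7 and 19.8 CPM in control caps (log2 fold change 3.95 ± 0.39, adjusted p = 1.7e-06), and axin2.L rose by 3.47 ± 0.58. The zinc-finger target sp5.L averaged 29.2 ± 3.62 CPM in induced caps with 2 counts over the control libraries (ratio 732, 95% counting interval 202 to 6050), and sp5.S was at least 206-fold higher. The Wnt effector tcf7.S, the feedback lipase gene notum.S and the receptor gene fzd7.L rose by 5.44, 5.28 and 5.25. The effector lef1.S rose by 1.95 ± 0.39, while lef1.L did not pass (0.40 ± 0.27, adjusted p = 0.23). The repressive effector gene tcf7l1 fell (tcf7l1.S −2.58 ± 0.20, tcf7l1.L −1.84 ± 0.23). Of 59 copies of Wnt ligands, receptors and secreted modulators, a list that holds the injected wnt8a, 31 were higher, 15 lower and 13 did not pass. The dorsal neural ligand gene wnt1.L was at least 168-fold higher, wnt11.L at least 124-fold, and the agonist gene rspo3.L averaged 9.88 CPM with 1 count over the control libraries. Receptor genes fzd8.S, fzd8.L and fzd4.S fell (−5.12 ± 0.30, −3.78 ± 0.28 and −5.63 ± 0.43).

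BMP pathway genes were more often lower than higher. Of 70 copies in a list that includes the injected chordin, 17 were higher, 33 lower and 20 did not pass (median −0.73, or −1.37 with the stage 17 libraries alone and the block). The pseudoreceptor gene bambi.L, a BMP target, stood at 46.9, 32.9 and 38.6 CPM in induced caps, against 291, 297 and 314 CPM in control caps (log2 fold change −2.93 ± 0.27, adjusted p = 6.3e-07), and bambi.S changed by −2.98 ± 0.26. Sizzled copy szl.S averaged 0.204 ± 0.19 CPM in induced caps and 146 ± 36.8 CPM in control caps (log2 fold change −9.7 ± 1.52). The ligand gene bmp4.S stood at 1.21, 4.5 and 4.03 CPM in induced caps, against 86.8, 92.6 and 96.3 CPM in control caps (log2 fold change −4.86 ± 0.31, adjusted p = 2e-08), and bmp4.L fell less (−1.72 ± 0.18). Another ligand gene, bmp7.1.S, changed by −7.44 ± 0.96. Every induced library lay below every control library for these ligands, and the groups did not overlap for 60.8% of all genes. On the other side, the receptor gene bmpr1b.S averaged 95.9 ± 14.1 CPM in induced caps with 3 counts over the control libraries (ratio 1620, 95% counting interval 553 to 7840). The ligand gene gdf6.S averaged 25.2 ± 2.33 CPM in induced caps with 2 counts over the control libraries (ratio 635, 95% counting interval 175 to 5240).

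Of the other signalling pathways, Hedgehog genes were mostly higher and the rest gave mixed counts. Hedgehog pathway genes had 14 of 20 copies higher, 0 lower and 6 not passed (median 1.92), with 25.6% of all genes higher. The co-receptor genes boc.S, boc.L and gas1.L rose by 5.66 ± 0.40, 3.76 ± 0.38 and 3.93 ± 0.40. Of 47 FGF pathway copies 18 were higher, 5 lower and 24 did not pass. The receptor gene fgfr4.L averaged 226 ± 22.3 CPM in induced caps and 8.89 ± 1.97 CPM in control caps (log2 fold change 4.67 ± 0.16, adjusted p = 1.1e-10), and fgfr4.S and fgfr3.S rose by 2.76 and 2.66. Lower were fgfr2.L, fgf14.S and dusp5.S (−1.08, −2.59 and −1.64). Notch pathway genes were near the background, with 17 of 59 copies higher (28.8%), 11 lower (18.6%, against 26.3% of all genes) and 31 not passed. The hairy-related gene hes2.L and the ligand gene jag1.S rose (6.53 ± 0.78 and 2.44 ± 0.48), and hes1.L and dll1.S fell (−3.17 ± 0.31 and −2.61 ± 0.58). The number lower was 7 without induced library b or control library b. Of 29 retinoic acid pathway copies 10 were higher (34.5%), 6 lower (20.7%) and 13 did not pass. Without induced library b or control library b 3 were lower. The enzyme copy cyp26c1.S averaged 252 ± 69.8 CPM in induced caps with 3 counts over the control libraries, and the carrier gene crabp2.L rose by 6.45 ± 0.73. Retinal reductase gene dhrs3 fell (dhrs3.S −4.26 ± 0.39, dhrs3.L −2.75 ± 0.40).

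Ribosome assembly genes were higher in nearly all of their list. Of 67 copies of genes for ribosome biogenesis 66 were higher and 0 lower, 1 did not pass, and the median was 1.21. The assembly factors wdr12.S, rrs1.L and heatr1.S rose by 2.22 ± 0.18, 2.04 ± 0.15 and 1.98 ± 0.15. Genes of structural ribosomal proteins summed to 33525 to 35042 CPM in induced libraries and 26578 to 31606 CPM in control libraries. Of their 138 copies 12 were higher (8.7%, against 25.6% of all genes), 1 was lower and 125 did not pass. Their median was 0.20, against −0.01 over all genes. With library totals 79 were higher, with the block within each stage 45, with the stage 17 libraries alone and the block 41, and with no block 5. The number higher was 4 without induced library a or without induced library c, 23 without control library a, 3 without control library b and 6 without control library c. Of 99 copies of cell cycle genes 52 were higher, 15 lower and 32 did not pass. The replicative helicase genes mcm4.S and mcm6.2.S and the licensing inhibitor gene gmnn.L rose by 3.0 ± 0.21, 2.49 ± 0.12 and 2.51 ± 0.25. Cyclin A1, known from meiosis, went the other way. The copy ccna1.L stood at 0.302, 0.304 and 0.307 CPM in induced caps, against 34.4, 40.7 and 53.6 CPM in control caps (log2 fold change −7.11 ± 0.33, adjusted p = 1.3e-09), and ccna1.S changed by −7.42 ± 0.76.

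Glycolysis genes were lower on balance, with 7 of 43 copies higher, 22 lower and 14 not passed (median −0.72). Lactate transporter genes split. The gene slc16a3.L averaged 10.7 ± 3.26 CPM in induced caps and 221 ± 19.4 CPM in control caps (log2 fold change −4.38 ± 0.30), and slc16a3.S changed by −3.38 ± 0.28. Its relative slc16a1.S rose by 2.96 ± 0.22. The regulatory enzyme gene pfkfb4.S, whose product is needed for crest formation in frogs, stood at 228, 248 and 191 CPM in induced caps, against 7.78, 7.99 and 7.87 CPM in control caps (log2 fold change 4.81 ± 0.16, adjusted p = 1.1e-10). Respiratory chain genes had 8 of 121 copies higher, 17 lower and 96 not passed, and 19 and 5 with library totals. With no block 8 were lower, and with no filter 10. Counts of lower copies were 6, 7 and 8 without induced library b, control library a or control library c. Of 38 copies of cholesterol synthesis genes 5 were higher, 13 lower and 20 did not pass, with 8 higher under library totals, 3 higher without induced library c or control library a, and 6 lower without control library b. Of 25 epidermal channel copies 4 were higher and 12 lower.

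Markers of mesoderm, muscle, endoderm and pluripotency served to check for other cells. Over all genes 25.6% were higher and 26.3% lower. Of 52 mesoderm and notochord copies, a list that holds the injected wnt8a and chordin, 18 were higher (34.6%), 11 lower (21.2%) and 23 did not pass. The median was 1.72, or 1.51 with genes of an empty group at their bound. Without induced library c 55 copies were tested, 14 were higher and 11 lower, and the median was 0.28. With the stage 17 libraries alone 22 copies were tested and 11 were higher. Their sum was 239.3 to 323.6 CPM in induced libraries and 38.2 to 57.7 CPM in control libraries, the injected copies included. In each induced library the chordin copy chrd.1.S alone took most of that sum. Secreted antagonist genes nog.S and cer1.S were higher, at 7.93 and 13.2 CPM in induced caps, against 0.0387 and 0.288 CPM in control caps. The mesodermal T-box factor tbxt.S stood at 4.1, 3.49 and 7.76 CPM in induced caps, against 0.368, 0.383 and 1.43 CPM in control caps (log2 fold change 2.9 ± 0.69, adjusted p = 0.0026). Its copies tbxt.L and tbxt.2.S had counts in induced library c alone among induced libraries and did not pass. The heart factor gene nkx2-5.L had no counts in induced caps, against 13.7, 11 and 4.62 CPM in control caps, and was at least 192-fold lower, and nkx2-5.S changed by −6.49 ± 0.55. Muscle genes were highest in induced library c. Of 27 copies 7 were higher (25.9%), 3 lower (11.1%) and 17 did not pass, and 4 of 28 were higher without induced library c. Without induced library b 39 copies passed the filter on low counts and were tested, and 17 were higher. Their sum was 121.4, 123.1 and 204.7 CPM in induced libraries a, b and c, against 162.5, 177.6 and 146.6 CPM in control libraries a, b and c. Cardiac actin copy actc1.S stood at 0.181, 0 and 9.86 CPM in induced caps, against 0.245, 0.93 and 0.65 CPM in control caps (log2 fold change 2.37 ± 1.83, adjusted p = 0.3). It passed without induced library b (3.85, adjusted p = 0.028), and without induced library c its sign was negative (−3.26, adjusted p = 0.26). The myogenic factor myod1.S stood at 0.121, 0.202 and 2.1 CPM in induced caps, against no counts in control caps (adjusted p = 0.019), and it lost its call without induced library c (adjusted p = 0.094) or control library c (0.055). The part of muscle cells in the other results was not tested. Of 10 endodermal copies 3 were higher (30%) and 1 was lower (10%). Of 51 pluripotency copies 16 were higher (31.4%), 15 lower (29.4%) and 20 did not pass, shares near those of all genes. The Oct4 relative pou5f3.3.L was under 0.4 CPM in every library (−0.20 ± 0.53, adjusted p = 0.78), as was pou5f3.3.S. Of homeobox genes, ventx2.1.S fell (−2.3 ± 0.32) and ventx2.1.L did not pass (0.33 ± 0.72, adjusted p = 0.73).

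Compared with stage 13, the difference between the 2 kinds of caps had the same direction for most genes called at both stages. The stages share no library. Of the genes called at both, 4023 were higher at each stage and 4303 lower at each, while 81 turned from lower at stage 13 to higher at stage 17 and 123 from higher to lower. A test of the change itself called 1503 genes whose effect was higher at stage 17 (6.13%) and 1431 whose effect was lower (5.84%). With library totals 65.4% of these calls were higher, against 51.2% with TMM. The crest list held 14 higher and 4 lower of 42 copies, the border list 2 higher and 9 lower of 32, and the multiciliated list 1 higher and 21 lower of 60. Such changes were not particular to these lists. Ribosome biogenesis genes held 23 higher and 0 lower of 67 copies, and ionocyte genes 0 higher and 13 lower of 42. The Wnt target list held 3 higher and 14 lower of 64 copies, and the Hedgehog list 1 higher and 8 lower of 20.

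Several crest genes had a larger effect at stage 17 than at stage 13. The receptor copy pdgfra.L averaged 207 ± 17.5 CPM in induced caps and 0.29 ± 0.175 CPM in control caps at stage 17. At stage 13 it averaged 33.4 ± 9.23 CPM in induced caps and 7.26 ± 0.782 CPM in control caps. The effect differed by 7.28 ± 0.50 on the log2 scale (adjusted p = 2.7e-06). For twist1.L the stage 13 means were 10.4 ± 3.85 CPM in induced caps and 1.33 ± 0.574 CPM in control caps, and the effect differed by 5.32 ± 0.55 (adjusted p = 4.9e-05). For sox8.L the effect differed by 4.39 ± 0.32 (adjusted p = 2.7e-06) and for sox8.S by 6.12 ± 1.05 (adjusted p = 0.002). The gene foxd3.L already stood at 56.5 ± 35.9 CPM in induced caps and 0.113 ± 0.0789 CPM in control caps at stage 13. Its effect differed by 7.21 (adjusted p = 0.018), a size that depends on the prior count because stage 17 control caps had no counts. The nuclear receptor gene nr2f1.S was called lower at stage 13 (−2.03) and higher at stage 17 (4.6), a difference of 6.64 ± 0.73 (adjusted p = 6.6e-05).

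Effects of cxcr4.S and ets1.S were negative at stage 13 and positive at stage 17. At stage 13 cxcr4.S averaged 6.35 ± 5.28 CPM in induced caps and 76.9 ± 11.4 CPM in control caps (log2 fold change −3.7). Its effect was 1.86 at stage 17, a difference of 5.55 ± 0.46 (adjusted p = 1.3e-05), and that of cxcr4.L differed by 2.99 ± 0.51 (adjusted p = 0.0018). For ets1.S the stage 13 means were 27.6 ± 11.2 CPM in induced caps and 60.9 ± 13.7 CPM in control caps (−1.12), and the effect differed by 4.79 ± 0.52 (adjusted p = 9.3e-05). For ets1.L the stage 13 means were 11.9 ± 3.23 CPM in induced caps and 48.9 ± 7.01 CPM in control caps, and the effect differed by 1.79 ± 0.26 (adjusted p = 0.00049). Both copies of ets1 were called lower at stage 13. Effects of the astacin-like protease genes astl2d.2.L and astl2d.3.L, under 0.3 CPM on average in both kinds of caps at stage 13, differed by 8.4 ± 1.4 and 8.06 ± 1.83 (adjusted p = 0.002 and 0.015). The call of astl2d.3.L was lost without the filter on low counts (adjusted p = 0.052) and with the block within each stage (0.06). In induced libraries of stage 17 astl2d.2.L stood at 12.9, 92.9 and 51.2 CPM, against 0, 0.383 and 0.065 CPM in control libraries.

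The effect was lower at stage 17 than at stage 13 for other genes. The Iroquois factor irx3.L averaged 3.22 ± 1.58 CPM in induced caps and 1.29 ± 1.06 CPM in control caps at stage 17. At stage 13 it averaged 38.9 ± 6.68 CPM in induced caps and 0.019 ± 0.033 CPM in control caps (difference −9.26 ± 1.47, adjusted p = 0.0012). For snai1.L the stage 13 means were 325 ± 17.8 CPM in induced caps and 1.09 ± 0.434 CPM in control caps, and the effect differed by −5.15 ± 0.39 (adjusted p = 5.4e-06). For snai2.S the effect differed by −6.83 (adjusted p = 0.014), again a size set in part by the prior count, since stage 13 control caps had none. Control caps gained ccna1.L, which averaged 0.5 ± 0.108 CPM in induced caps and 0.806 ± 0.38 CPM in control caps at stage 13, and its effect differed by −6.47 ± 0.59 (adjusted p = 1.7e-05). The effect on hand2.L differed by −6.82 (adjusted p = 0.0012), with 2 counts over the stage 17 induced libraries. The ligand gene bmp4.S, already lower at stage 13 with 22.4 ± 2.06 CPM in induced caps and 131 ± 13.7 CPM in control caps, was lower still at stage 17, and its effect differed by −2.32 ± 0.38 (adjusted p = 0.0013). For slc26a4.3.L the difference of −6.53 ± 1.91 (adjusted p = 0.046) lost its call without induced library b (adjusted p = 0.087), induced library c (0.1), control library a (0.08), control library b (0.082) or control library c (0.053). It also did not pass without the filter on low counts (0.12), with no block (0.057) and by DESeq2 (0.24), and without induced library a the difference was −10.8.

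**Figure D4:**
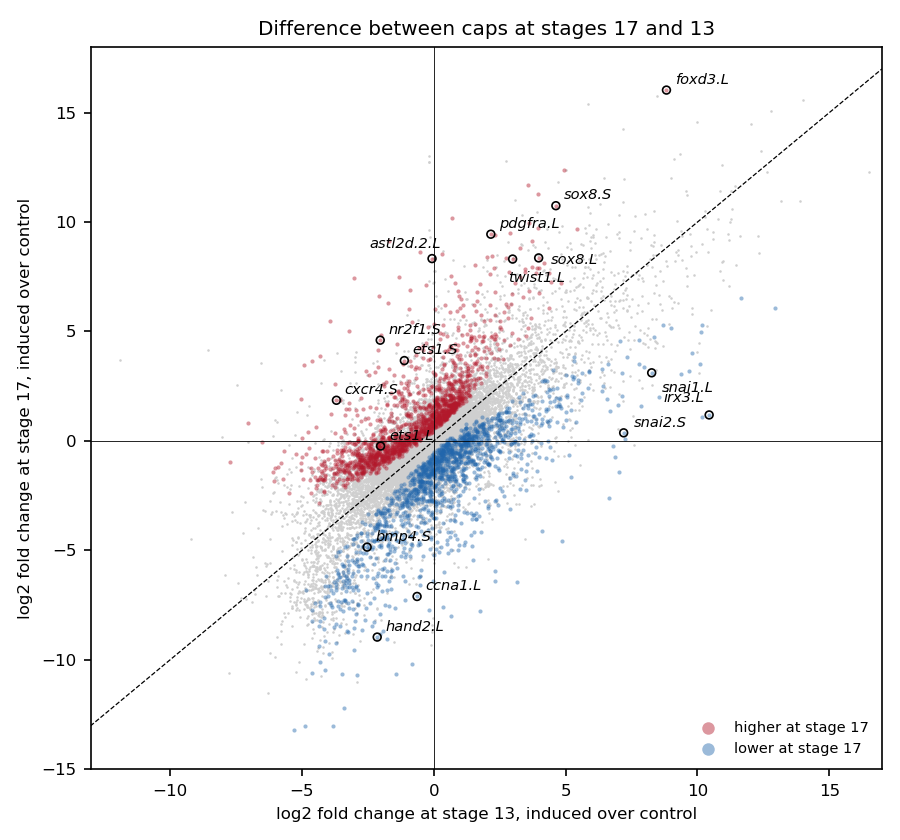
Log2 fold change (induced over control caps) at stage 17 against that at stage 13 for 24499 genes. Grey points did not pass the test of the change between stages, coloured points passed it, the dashed line marks equal effects, and circles mark named genes. cxcr4.S and ets1.S lie left of 0 at stage 13 and above 0 at stage 17, and snai1.L and irx3.L lie far below the line.

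The genome of this frog holds 2 copies of many genes, on long (L) and short (S) chromosomes. Of 5148 pairs with both copies in the main test, both copies were called for 2115. They moved in the same direction for 1921 pairs (90.8%) and in opposite directions for 194 (9.17%). A test of the L minus S difference, with limma on log2 CPM with a prior of 2, called 2313 of 5150 pairs (44.9%). This prior damps the effect of a copy with few counts, and the fold changes of single copies come from edgeR instead. The L minus S differences below therefore need not equal the gap between the fold changes printed for the 2 copies. Their order holds on the limma scale only. Multi-mapping reads, 11.6% to 12% in these libraries, stand apart from the gene counts, so near-identical copies may be split unevenly.

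Among pairs in which the L copy lay lower, keratin krt19 was first on the limma scale, with an L minus S difference of −6.15 ± 0.49 (adjusted p = 2.2e-07). Its copy krt19.S stood at 56.3, 149 and 98.1 CPM in induced caps, against 48.2, 53.1 and 42.7 CPM in control caps (log2 fold change 0.99 ± 0.23), while krt19.L fell as given above. The galactosyltransferase b4galt4 followed (−5.15 ± 0.34), with b4galt4.S at 40.3 ± 6.18 CPM in induced caps and 1.35 ± 0.527 CPM in control caps (4.96 ± 0.54). Its copy b4galt4.L (−1.45 ± 0.46, adjusted p = 0.017) lost its call without induced library b (adjusted p = 0.098), induced library c (0.092), control library a (0.084) or control library b (0.061), and with no filter (0.051). For the matrix gene egflam (−5.09 ± 0.30) egflam.S rose by 9.08 ± 0.60 and egflam.L did not pass (0.51 ± 0.51, adjusted p = 0.43), but was called higher in the fit of stage 17 alone with the block (0.54, adjusted p = 0.039). The glycolytic regulator pfkfb4 (−4.61 ± 0.18) showed the same kind of split. Its copy pfkfb4.L stood at 94.1, 96.6 and 80.4 CPM in induced caps and 98.2, 116 and 81 CPM in control caps and did not pass (−0.11 ± 0.13, adjusted p = 0.49). For krt18.1 (−4.61 ± 0.52) krt18.1.L overlapped between groups and did not pass (0.03 ± 0.25, adjusted p = 0.95). The calcium channel regulator cracr2a (−4.66 ± 0.41) had cracr2a.L lower (−4.46 ± 0.40) and cracr2a.S not passed (0.86 ± 0.43, adjusted p = 0.11). The call of cracr2a.S passed without induced library a (1.33, adjusted p = 0.014) or control library a (1.36, adjusted p = 0.026).

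Among pairs in which the L copy lay higher, the crest factor snai2 was first on the limma scale (5.75 ± 0.26, adjusted p = 1.2e-09). Its copy snai2.S stood at 14.8, 6.83 and 8.64 CPM in induced caps, against 8.4, 9.08 and 4.94 CPM in control caps, which overlapped (log2 fold change 0.37 ± 0.49, adjusted p = 0.56). E-cadherin cdh1 came next (5.32 ± 0.46), with its copies in opposite directions. For the unconventional myosin gene myo10.2 (5.22 ± 0.25) myo10.2.L stood at 289, 165 and 183 CPM in induced caps, against 1.59, 1.48 and 1.11 CPM in control caps (7.21 ± 0.44). The copy myo10.2.S differed less (0.74 ± 0.28, adjusted p = 0.039), and it lost its call without induced library a (adjusted p = 0.25) or control library c (0.18). Adenylate cyclase adcy9 (4.95 ± 0.34) had adcy9.L higher (4.77 ± 0.40) and adcy9.S lower at 1.6 CPM in induced caps and 3.52 CPM in control caps (−1.04 ± 0.36, adjusted p = 0.024). The call of adcy9.S failed with library totals (0.073), and it lost its call without induced library a (adjusted p = 0.12), induced library b (0.17), control library a (0.065), control library b (0.072) or control library c (0.06). Without induced library c the change was −1.71. For the kinase inhibitor gene inka1 (4.79 ± 0.31), known from frog crest, inka1.L rose by 7.47 ± 0.47 and inka1.S by 1.47 ± 0.23. The chitobiase gene ctbs (4.67 ± 0.51) fell in both copies. Its copy ctbs.S stood at 48.7, 14.6 and 54.2 CPM in induced caps, against 1774, 1806 and 2244 CPM in control caps (−5.71 ± 0.66), and ctbs.L fell by 2.11.

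**Figure D5:**
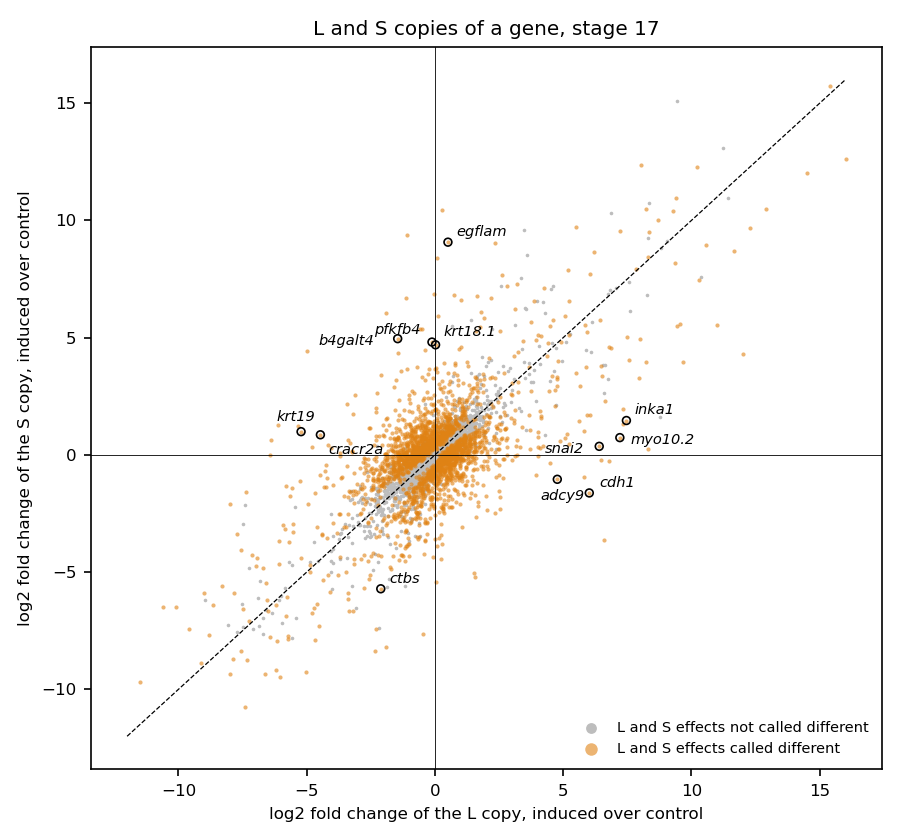
Log2 fold change (induced over control caps, stage 17) of the S copy against that of the L copy for gene pairs with both copies tested. Orange points are pairs whose effects were called different, grey points the rest, the dashed line marks equal effects, and circles mark the 12 named pairs. cdh1, adcy9, krt19 and b4galt4 lie in the quadrants where the copies moved in opposite directions.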

How the data were processed

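RNA from cultured Xenopus laevis animal caps was sequenced from poly(A) libraries made with a directional kit, per the labels' protocols. Per the submitters' processing notes, reads were handled with fastp 0.23.2, STAR 2.6.0 and HTSeq 1.99.2. Neither the genome build nor the annotation or strand option is named by those notes or the labels. The values the authors deposited are raw read counts per gene and library for 49282 genes. The 5 HTSeq summary lines were left out of library sizes (reads in no gene 11.1% to 11.9%). Lamprey libraries were not used.

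All 18 frog libraries were fitted together with edgeR 4.0.16 in R 4.3.3 (TMM, filterByExpr by group, robust quasi-likelihood test, 2-sided), with group and column letter as terms. P-values were adjusted by Benjamini-Hochberg over all genes tested, with 0.05 as the threshold. Column letters are in no label. Residuals of same-letter induced and control libraries of stage 17 correlated at 0.351, 0.333 and 0.498, and those of different letters at −0.02 or below. Residuals were centred within each group, so negative values for different letters follow in part from positive ones for the same letter. The letter was taken to pair the samples, and whether it does was not tested. L minus S differences were tested with limma 3.58.1. Standard errors were derived from the F statistic and are nominal where a group is nearly empty. Bounds set 3 counts over an empty group; with 1 to 3 counts the ratio has a 95% interval. Both cover counting error only. The edgeR and limma tests were tried on simulated data.

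Named genes are the 12 with the highest and 12 with the lowest fold change (at least 10 CPM in the higher group, groups not overlapping, with a gene symbol and not an identifier, XB identifiers included), all copies of core genes, and up to 3 further members per list and direction (at least 5 CPM). Further named genes are the 6 largest stage differences among list members and the 6 largest copy differences, per direction. Lists near the background are given by counts. Some genes the rule names are not reported here. The comparison, the 38 gene lists and the named core genes were chosen with earlier results of these data known. Alternatives were DESeq2 1.42.0, library totals, no filter, other blocks, stage 17 alone, summed copies and leaving out each library. Leaving out a library also changes which genes pass the filter on low counts.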

Additional observations from a re-analysis of the deposited data

Results flagged for a closer look

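The effect of induction differed between stages 17 and 13, by edgeR's test of the difference, for 19 genes whose stage difference the text describes. Values are stage 17 effects minus stage 13 effects on the log2 scale. Effects were higher at stage 17 for the astacin-like proteases astl2d.2.L (8.4) and astl2d.3.L (8.06), the receptors pdgfra.L (7.28), cxcr4.S (5.55) and cxcr4.L (2.99), and the factors foxd3.L (7.21), nr2f1.S (6.64), sox8.S (6.12), sox8.L (4.39), twist1.L (5.32), ets1.S (4.79) and ets1.L (1.79). Effects were lower at stage 17 for the transcription factors irx3.L (−9.26), snai2.S (−6.83), snai1.L (−5.15) and hand2.L (−6.82). The same held for the transporter slc26a4.3.L (−6.53), cyclin ccna1.L (−6.47) and the ligand bmp4.S (−2.32). Of these, slc26a4.3.L missed the threshold without induced library b (adjusted p = 0.087), induced library c (0.1) or control libraries a (0.08), b (0.082) or c (0.053), and by DESeq2 (0.24). The transporter slc26a4.3.L also missed it without the filter on low counts (0.12) and with no block (0.057). The gene astl2d.3.L missed it without that filter (0.052) and with the block within each stage (0.06). Groups of 3 libraries are too small for a test of single outlying values.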

How the results depend on the processing

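Counts of genes called at stage 17 stayed within 1.5 times their values under every alternative run, and no called result reversed. Calls higher ranged over 5407 to 5918 and calls lower over 5187 to 6123 when 1 library was left out. Without the replicate block 10997 of the 12711 calls kept their direction (86.5%), with library totals 89.6% and by DESeq2 97.3%. The test of the change between stages depended more on the setting. Its 1503 higher calls became 2307 with library totals, 987 without the replicate block and 2827 with the replicate block within each stage, and its 1431 lower calls became 2393 with that block. The block within each stage was chosen for this test after seeing the data. The cause of these shifts was not tested. Leaving out 1 library gave 1042 to 1229 higher and 964 to 1330 lower calls. Pairs of copies called different numbered 1893 to 2113 without 1 library, against 2313 with all. The difference in the share of the 10 most abundant genes was −6.34 to −4.87 percentage points. Medians of the pigment, pluripotency, retinoic acid and respiratory lists changed sign with library totals. Depth limits genes with few counts, whose fold changes are given as bounds or ratios.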
